A study of Mus musculus with 27 samples.

Results

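Carboxylesterases are serine hydrolases that cleave ester and amide bonds, and this account follows 10 of their genes in mouse liver: Ces1b, Ces1c, Ces1d, Ces1e, Ces1f, Ces1g, Ces2a, Ces2c, Ces2e and Ces3a. They were taken by name from the gene identifiers of the count files, matched to GRCm38 symbols, and are 10 of 41388 identifiers and 10 of the 20 Ces genes of the annotation. All of the mice were ovariectomized C57BL/6 females, labelled 120 days of age. The 9 groups of 3 livers received TCDD, the dioxin that activates the aryl hydrocarbon receptor (AhR) and is cleared slowly, or the sesame oil vehicle alone. TCDD was given at 0.01, 0.03 and 0.1 µg/kg, at 0.3, 1 and 3 µg/kg, and at 10 and 30 µg/kg. Dosing was by gavage once in 4 days over a span of 92 days, although 1 label also calls it daily. The labels state no genotype other than the strain, and the ovaries are absent from the vehicle mice as well as the dosed ones. The labels give the tissue as liver and the library kit as Illumina TruSeq RNA. The series title places the study in dose-dependent gene expression during TCDD-elicited liver fibrosis.

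Most carboxylesterases sit inside the endoplasmic reticulum, where a short C-terminal signal of histidine, any residue, glutamate and leucine holds them back from secretion. In liver they activate or inactivate ester drugs and insecticides, and several also hydrolyse stored acylglycerols and so supply lipid for very-low-density lipoprotein. In the mouse, Ces1d is the hepatic triacylglycerol hydrolase, Ces1g is a lipid hydrolase of the liver, Ces1c is the esterase secreted into plasma, and Ces1e is egasyn, which anchors beta-glucuronidase in the endoplasmic reticulum. The genes lie in runs of tandem copies. The Ces1 members occupy the minus strand of chromosome 8 from 93056728 to 93337308 (GRCm38), and the Ces2 members and Ces3a the plus strand from 104734003 to 105058413.

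The ends of 4 coding sequences are shown because they carry the retention signal or lack it, with the last 4 codons before the stop in capitals. They were read 5′ to 3′ from the GENCODE transcripts of GRCm38, and all 4 genes are on chromosome 8.
Ces1b: gaccctactgagcacAGAGAACACAAAtga
Ces1c: gaccctactgaacacACAGAACACAAAtga
Ces1d: ccatcccacagggaaCATGTTGAGCTCtga
Ces3a: agaagcaggaaagttCCAGAGGAGCTCtga
Codons for histidine, any residue, glutamate and leucine end Ces1d, and the same pattern ended Ces1e, Ces1f, Ces1g, Ces2a, Ces2c and Ces2e. Ces1b, Ces1c and Ces3a did not end in that pattern.

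Ces1b and Ces1c are the closest pair among the members, with 91.2% identical coding bases, and their promoters are shown because Ces1b was called higher with TCDD and Ces1c was not. Each runs from 250 bases before to 50 after the start of the gene in RefSeq (GRCm38.p6, minus strand, 5′ to 3′), at chr8:93079891-93080190 for Ces1b and chr8:93131234-93131533 for Ces1c. Capitals mark bases that differ between the promoters or have no partner in the alignment, in which 253 of 273 aligned bases (92.7%) were identical.
Ces1b: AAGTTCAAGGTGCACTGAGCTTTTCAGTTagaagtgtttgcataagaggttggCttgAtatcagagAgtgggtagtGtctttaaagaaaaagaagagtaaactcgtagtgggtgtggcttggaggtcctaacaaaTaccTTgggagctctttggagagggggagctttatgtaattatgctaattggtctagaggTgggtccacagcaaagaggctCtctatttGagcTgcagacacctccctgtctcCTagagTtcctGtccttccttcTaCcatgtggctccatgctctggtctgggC
Ces1c: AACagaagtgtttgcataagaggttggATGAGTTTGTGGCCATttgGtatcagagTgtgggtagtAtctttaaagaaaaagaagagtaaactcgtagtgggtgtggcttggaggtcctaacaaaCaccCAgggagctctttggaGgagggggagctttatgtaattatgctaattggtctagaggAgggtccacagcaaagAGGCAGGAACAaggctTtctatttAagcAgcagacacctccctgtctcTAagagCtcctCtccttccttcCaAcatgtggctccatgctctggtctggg
The RefSeq table held 8 promoters of 7 members. The letters GCGTG, the core of the element that AhR binds, were in 0 of these 8 windows on either strand, against 32.4% of all 32851 promoters. TGACNNNGC, the antioxidant element, was also in 0 of 8, against 12.4% of all. The forkhead letters TGTTTGC were in both Ces1b windows and the Ces1c window, against 5.07% of all. The Ces1b windows overlap each other and the Ces1c window is a near copy, so these 3 windows are not separate observations. These are matches of letters in short windows and say nothing of binding.

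Counts were scaled to CPM, the reads of a gene over the size of its library, with TMM factors, and a gene was called changed at an edgeR adjusted p below 0.05 over the 15121 genes tested. All 10 members passed the low-count filter. Total counts were 11050391 to 30873586 in 26 libraries and 434011 in the second 0.3 µg/kg library. That shallow library gave the highest CPM of all 27 livers for 9 of the 10 members (all except Ces1b). The share of all genes highest in it was not computed, so this count is not read as particular to the members. Each dose is compared with the same 3 vehicle livers. The 0.3 to 10 µg/kg libraries carry another set of index sequences than vehicle, so for those doses index set and dose cannot be told apart. The 30 µg/kg libraries reuse the vehicle indices, so index set and dose cannot be told apart between 30 and 10 µg/kg either. Cyp1a1, a cytochrome P450 that activated AhR induces, had 6938, 7943 and 6721 CPM at 30 µg/kg, against 3.69, 3.19 and 2.49 CPM in vehicle livers. The labels call the livers biological replicates, and in whole tissue fewer cells of a type and less RNA per cell cannot be told apart.

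At 30 µg/kg, 5 members fell and 1 rose. Ces1d, Ces1e, Ces1g, Ces2a and Ces3a fell, Ces1b rose, and Ces1c, Ces1f, Ces2c and Ces2e were not called. Of all genes tested, 37.4% were called at this dose, 18.0% higher and 19.4% lower. The groups did not overlap for 8 of 10 members, against 49.8% of all genes. The median log2 fold change was -0.89 over the members and -0.01 over all genes. Scaling by RLE factors moved the all-gene split to 3345 higher of 5644 called, against 2720 of 5660 with TMM, and the median over all genes to 0.10 (log2), a shift of about 0.1. The 6 member calls held under RLE and upper-quartile scaling.

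**Figure D1:**
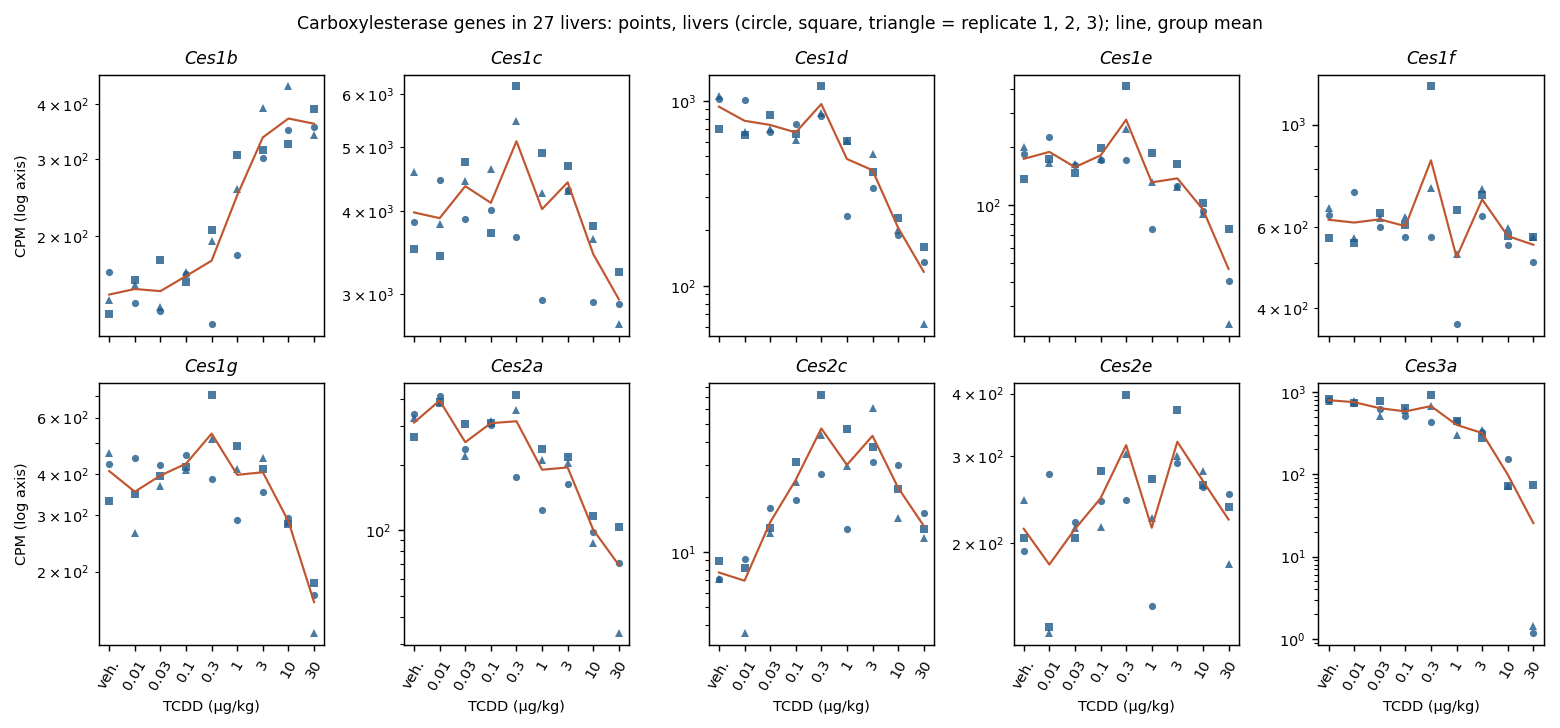
CPM (log axis) of each of the 10 members in all 27 livers against TCDD dose (µg/kg), with vehicle at the left. Points are livers and lines are group means. Ces1d, Ces2a and Ces3a are low at 10 and 30 µg/kg, Ces1b is high from 1 µg/kg, and Ces2c is highest between 0.3 and 3 µg/kg.

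Among the lipid hydrolases, Ces1d, the triacylglycerol hydrolase, had 134, 161 and 61.8 CPM at 30 µg/kg, against 1026, 704 and 1056 CPM in vehicle livers. Every 30 µg/kg liver was below every vehicle liver. The group means were 119 ± 51.1 CPM at 30 µg/kg and 929 ± 195 CPM in vehicle (SD, n = 3 each), a 7.81-fold lower level with a log2 fold change of -2.97 ± 0.33 (SE; edgeR adjusted p = 1.38e-07). Ces1d also fell at 10 µg/kg (188, 231 and 199 CPM, log2 -2.17 ± 0.32, edgeR adjusted p = 1.58e-05), 3 µg/kg (log2 -1.14 ± 0.31, edgeR adjusted p = 0.0162) and 1 µg/kg (log2 -0.94 ± 0.31, edgeR adjusted p = 0.0317). Between vehicle and 0.3 µg/kg its group means lay from 674 to 960 CPM with no call. At 1 µg/kg the call was lost without the first dosed liver (log2 -0.61, edgeR adjusted p = 0.186), vehicle liver 1 (0.1) or vehicle liver 3 (0.111), with no low-count filter (0.0595) and with the 6 libraries alone (0.13). At 3 µg/kg it was lost without vehicle liver 1 or 3 or dosed liver 1 or 2 (edgeR adjusted p from 0.0617 to 0.0918).

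Ces1g, a lipid hydrolase of the same cluster, was called against vehicle at 30 µg/kg only, where its mean was also the lowest of the 9 groups. It had 169, 185 and 129 CPM at 30 µg/kg, against 430, 332 and 467 CPM in vehicle livers. The 10 µg/kg livers had 294, 281 and 284 CPM. These 3 sets of livers did not overlap. At 30 µg/kg it fell 2.54-fold against vehicle (log2 -1.35 ± 0.22, edgeR adjusted p = 2.69e-05), and the difference at 10 µg/kg was not called (log2 -0.52 ± 0.21, edgeR adjusted p = 0.0857). With only the 6 libraries of that comparison, the difference at 10 µg/kg was called (edgeR adjusted p = 0.0302). Ces1g was the only member called between 30 and 10 µg/kg (log2 -0.83 ± 0.22, edgeR adjusted p = 0.0344), where 3.20% of all genes were called and 1.83% were lower. That call was lost without 10 µg/kg liver 1 or 2 or 30 µg/kg liver 1 or 3 (edgeR adjusted p from 0.0906 to 0.241).

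Ces3a was the member with the widest range across the dose series and within a group. It had 1.18, 73.9 and 1.44 CPM at 30 µg/kg, against 801, 813 and 765 CPM in vehicle livers. The livers at 10 µg/kg had 153, 73.0 and 71.1 CPM. The first and the third 30 µg/kg livers had 28 and 27 counts of the gene, and the second had 1925. All 3 livers were below every vehicle liver, and the second lay within the range of the 10 µg/kg livers. The fitted log2 fold change against vehicle was -4.95 ± 0.99 (edgeR adjusted p = 0.000631), and it was -9.25 without the second liver (edgeR adjusted p = 7.64e-14). When the 6 libraries were fitted alone the call was lost (edgeR adjusted p = 0.064). Against 10 µg/kg the difference was not called with all livers (log2 -1.95 ± 0.87, edgeR adjusted p = 0.236) and was called without the second (log2 -6.25, edgeR adjusted p = 4.42e-10).

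At lower doses Ces3a averaged 750 ± 23.6 CPM at 0.01, 633 ± 132 at 0.03, 579 ± 67.9 at 0.1, 671 ± 242 at 0.3, 398 ± 82.5 at 1 and 316 ± 35.1 CPM at 3 µg/kg, against 793 ± 24.7 CPM in vehicle (SD, n = 3 each). All livers at 0.1, 1 and 3 µg/kg were below all vehicle livers, yet none of these doses was called. The call at 10 µg/kg (log2 -3.00 ± 0.90, edgeR adjusted p = 0.022) was lost without liver 2 (edgeR adjusted p = 0.0885) or liver 3 (0.0959) of that dose. The fit gives each gene 1 dispersion over all groups. With only the 6 libraries of the comparison, 1 µg/kg (log2 -0.99, edgeR adjusted p = 0.0181) and 3 µg/kg (log2 -1.30, edgeR adjusted p = 7.95e-05) were called.

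Ces3b, the neighbour of Ces3a and no member, has 95.3% identical coding bases, and 25.6% of the 50-base stretches of Ces3a transcripts also occur in Ces3b. Ces3b had 0.756, 43.4 and 0.904 CPM at 30 µg/kg, against 239, 329 and 214 CPM in vehicle livers. The same second liver was the high one for both genes. Ces3b fell at 30 µg/kg (log2 -4.10 ± 0.95, edgeR adjusted p = 0.00223) and was not called with the 6 libraries alone (edgeR adjusted p = 0.0849). The counting set aside alignments that were not unique, so reads within the shared stretches may be missing from both copies. The levels of the pair are uncertain to that extent.

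**Figure D2:**
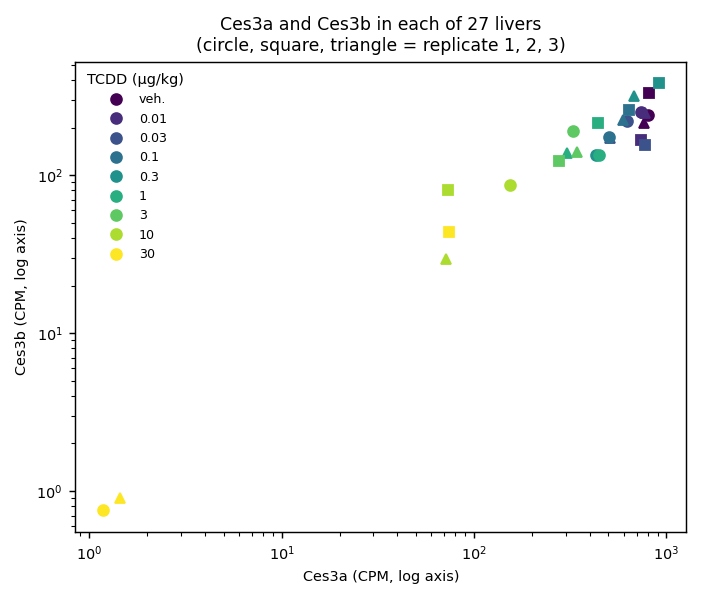
Ces3b against Ces3a, both in CPM on log axes, in each of the 27 livers, coloured by TCDD dose (µg/kg). Livers 1 and 3 at 30 µg/kg (circle and triangle) lie near 1 CPM on both axes, and liver 2 lies at 73.9 CPM of Ces3a and 43.4 CPM of Ces3b, among the 10 µg/kg livers.

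Ces1e, or egasyn, had 40.6, 75.3 and 24.1 CPM at 30 µg/kg, against 184, 136 and 200 CPM in vehicle livers. The groups did not overlap, and Ces1e fell 3.71-fold (log2 -1.89 ± 0.33, edgeR adjusted p = 9.55e-05). At 10 µg/kg it had 92.9, 102 and 89.6 CPM, below all vehicle livers, and just missed the threshold (log2 -0.87 ± 0.32, edgeR adjusted p = 0.0543). Ces1e was called at 10 µg/kg with the 6 libraries alone and with a replicate block in the fit. Gusb, the beta-glucuronidase that egasyn holds, was looked up after the values of Ces1e were seen. It averaged 31.1 ± 3.67 CPM at 30 µg/kg and 25.3 ± 0.938 CPM in vehicle (SD, n = 3 each) and was not called (log2 0.30 ± 0.17, edgeR adjusted p = 0.164).

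Ces1f, described in the mouse as a further triacylglycerol hydrolase, was not called at any dose. It had 504, 571 and 572 CPM at 30 µg/kg, against 636, 569 and 661 CPM in vehicle livers, and the groups overlapped (log2 -0.18 ± 0.20, edgeR adjusted p = 0.52). Across the 9 groups its means ranged between 516 and 836 CPM, with the highest at 0.3 µg/kg, where the shallow library had 1210 CPM from 421 counts. The other libraries of that group had 570 and 730 CPM.

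Ces1c, the plasma esterase, had the highest level per kilobase of exon of the members in every group. It had 2898, 3247 and 2705 CPM at 30 µg/kg, against 3857, 3513 and 4584 CPM in vehicle livers. The groups did not overlap, but the change was not called (log2 -0.43 ± 0.20, edgeR adjusted p = 0.0936). No other dose was called against vehicle.

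Ces1b, the near copy of Ces1c, was the only member called higher at 30 µg/kg. It had 354, 389 and 340 CPM at 30 µg/kg, against 166, 133 and 143 CPM in vehicle livers. No liver of these groups overlapped, and Ces1b rose 2.45-fold (log2 1.29 ± 0.19, edgeR adjusted p = 8.47e-06). The rise was 1.68-fold at 1 µg/kg (log2 0.75 ± 0.19, edgeR adjusted p = 0.00622), 2.28-fold at 3 µg/kg (log2 1.19 ± 0.19, edgeR adjusted p = 8.8e-05) and 2.52-fold at 10 µg/kg (log2 1.33 ± 0.19, edgeR adjusted p = 1.09e-05). Between 10 and 30 µg/kg there was no further call (log2 -0.04 ± 0.19). The call at 1 µg/kg was lost with those 6 libraries alone (edgeR adjusted p = 0.0538). Of their 50-base stretches, 11.6% of Ces1b and 13% of Ces1c also occur in other genes, against 0.903% to 3.3% for Ces1d, Ces1e, Ces1f, Ces1g and Ces2e and 17.3% for Ces2a.

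The ratio of Ces1b to Ces1c within a liver sets the pair side by side. It was 0.122 ± 0.00296 at 30 µg/kg, 0.109 ± 0.0203 at 10, 0.0762 ± 0.0131 at 3 and 0.0615 ± 0.00131 at 1 µg/kg, against 0.0373 ± 0.00598 in vehicle livers (SD, n = 3 each). Every liver at these 4 doses was above every vehicle liver. The exact two-sided permutation p was 0.1 at each, which is the smallest that 3 livers against 3 allow, and it was 0.4 to 0.7 at the 4 lower doses. Ces1b was already called higher at 1 to 30 µg/kg, and Ces1c was not called. The ratio restates that difference, so its p gives no separate support.

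**Figure D3:**
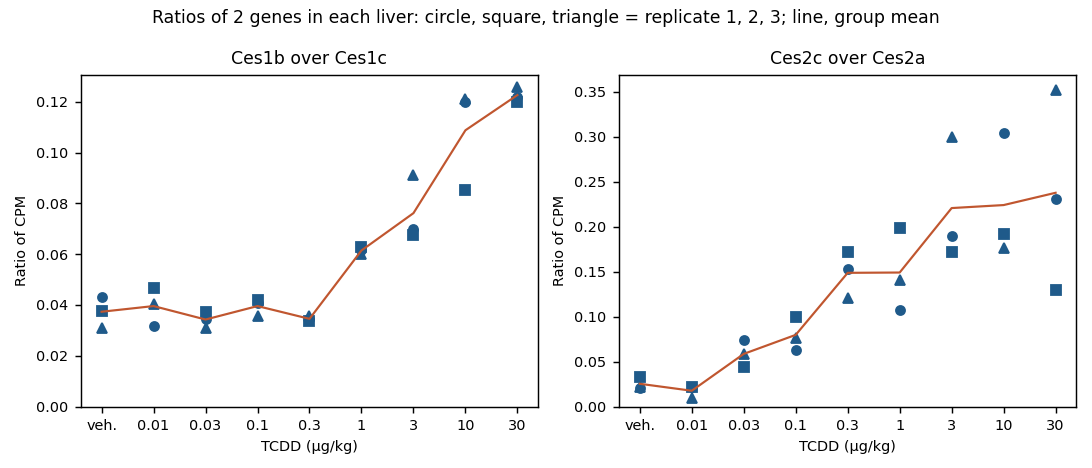
Ratio of CPM in each of the 27 livers for Ces1b over Ces1c (left) and Ces2c over Ces2a (right), against TCDD dose (µg/kg), with vehicle at the left and lines for group means. The Ces1b ratio is 0.122 at 30 µg/kg and 0.0373 in vehicle, and the Ces2c ratio is 0.238 at 30 µg/kg and 0.0253 in vehicle.

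Ces2c, known in the mouse as an acylcarnitine hydrolase, was called at a lower dose than any other member, and its mean was not highest at the highest dose. It averaged 6.96 ± 2.95 CPM at 0.01, 14.5 ± 2.45 at 0.03, 24.7 ± 5.75 at 0.1, 47.3 ± 22.8 at 0.3, 29.9 ± 16.8 at 1, 43.1 ± 15.8 at 3, 22.5 ± 7.15 at 10 and 13.9 ± 2.32 CPM at 30 µg/kg, against 7.72 ± 1.01 CPM in vehicle (SD, n = 3 each). Every liver from 0.03 to 30 µg/kg was above every vehicle liver. The lower means at high doses were not called, and the groups overlapped. The differences were log2 -0.83 ± 0.41 for 10 against 0.3 µg/kg (edgeR adjusted p = 0.193) and -0.69 ± 0.38 for 30 against 10 µg/kg (edgeR adjusted p = 0.334). Ces2c rose at 0.3 µg/kg (5.20-fold, log2 2.38 ± 0.43, edgeR adjusted p = 0.00377), 1 µg/kg (3.89-fold, edgeR adjusted p = 0.0015), 3 µg/kg (5.61-fold, log2 2.49 ± 0.40, edgeR adjusted p = 0.000185) and 10 µg/kg (2.92-fold, edgeR adjusted p = 0.00699). It was the only member called at 0.3 µg/kg, where 1.18% of all genes were called and 0.622% were higher, and the groups did not overlap for 2 members, against 16.6% of all genes.

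The 3 livers at 0.3 µg/kg had 26.7, 71.8 and 43.3 CPM of Ces2c, and the 71.8 CPM of the shallow library came from 25 counts. The call held without the shallow library and was lost without the third (log2 2.26, edgeR adjusted p = 0.0792). At 0.1 µg/kg the livers had 19.3, 30.8 and 24.1 CPM, against 7.13, 8.89 and 7.14 CPM in vehicle. This 3.21-fold difference was not called by edgeR (log2 1.68 ± 0.40, adjusted p = 0.115), but was by DESeq2 (adjusted p = 0.00377) and by edgeR on the 6 libraries alone (adjusted p = 0.00169). At 30 µg/kg the log2 fold change was 0.85 ± 0.39 (edgeR adjusted p = 0.0957), called by DESeq2 (adjusted p = 0.0365) and in the 6 libraries alone (edgeR adjusted p = 0.00486). Of the 50-base stretches of Ces2c, 36.1% also occur in other genes, most often Ces2d-ps, Gm8798, Ces2b and Gm6831. This is the largest share of any member, so the level of Ces2c is uncertain to that extent.

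Ces2a, which hydrolyses acylglycerols in mouse liver, had 71.0, 103 and 33.7 CPM at 30 µg/kg, against 341, 267 and 329 CPM in vehicle livers. The groups did not overlap, and Ces2a fell 4.51-fold (log2 -2.17 ± 0.31, edgeR adjusted p = 6.11e-06). It fell 3.11-fold at 10 µg/kg (97.7, 116 and 87.6 CPM, log2 -1.64 ± 0.30, edgeR adjusted p = 0.000314). At 1 and 3 µg/kg all livers were below the vehicle livers with no call (log2 -0.72 ± 0.30 and -0.68 ± 0.30). At 0.01 µg/kg the 3 livers (412, 387 and 383 CPM) were above the vehicle livers with no call (log2 0.34 ± 0.30).

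The ratio of Ces2c to Ces2a was 0.238 ± 0.111 at 30 µg/kg and 0.0253 ± 0.00696 in vehicle livers (SD, n = 3 each). The pair was chosen after its values were seen, as a member that rose and one that fell. The ratio therefore restates those changes, and no p is given for it. From 0.03 µg/kg up, every dosed liver had a higher ratio than every vehicle liver. Ces2a and Ces2c have 83% identical coding bases.

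Ces2e, a hydrolase of pyrethroid insecticides in the mouse, was not called at any dose. It had 251, 237 and 182 CPM at 30 µg/kg, against 193, 205 and 244 CPM in vehicle livers (log2 0.06 ± 0.23, edgeR adjusted p = 0.868). Its highest mean was 320 ± 44.7 CPM at 3 µg/kg, where all 3 livers were above the vehicle livers (log2 0.58 ± 0.24, edgeR adjusted p = 0.13, and 0.0185 with the 6 libraries alone).

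**Figure D4:**
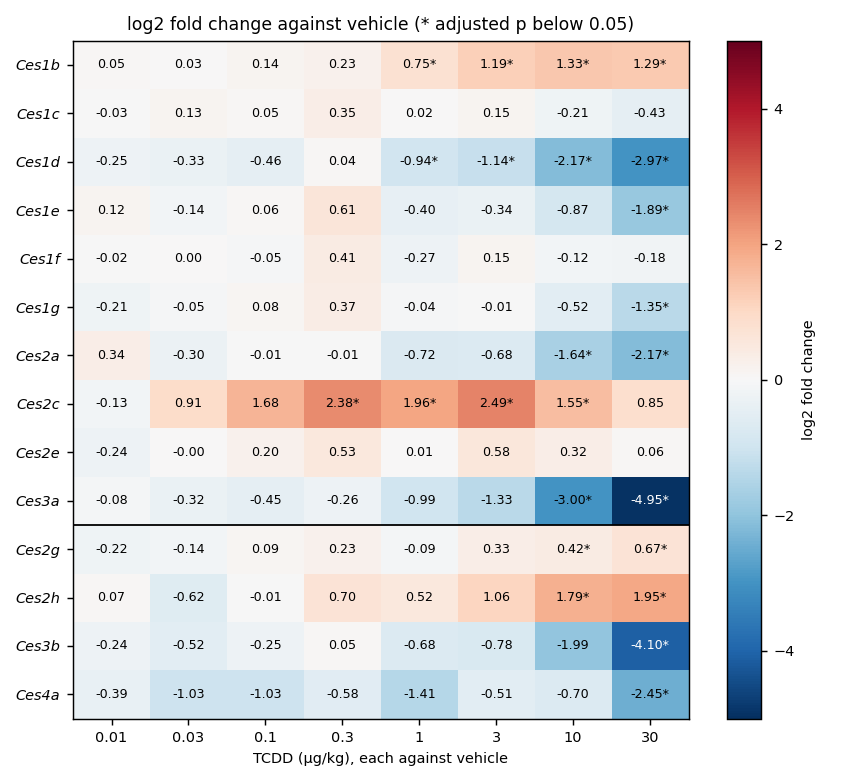
log2 fold change of each member (upper 10 rows) and of 4 other Ces genes (lower rows) at each TCDD dose against vehicle. Colour and printed value give the log2 fold change, and a star marks an edgeR adjusted p below 0.05. Ces3a reaches -4.95 and Ces1d -2.97 at 30 µg/kg, and Ces2c peaks at 2.49 at 3 µg/kg.

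Over the doses, 0 members were called at 0.01, 0.03 and 0.1 µg/kg. Of all genes, 0% were called at 0.01 µg/kg, 0.0397% at 0.03 and 0.192% at 0.1. The groups did not overlap for 1 member at 0.01 µg/kg, against 7.98% of all genes, 1 member at 0.03, against 10.5%, and 2 members at 0.1, against 15.9%. At 1 µg/kg, 3 members were called (Ces1b and Ces2c higher, Ces1d lower), against 19.4% of all genes, 11.1% higher and 8.21% lower. Of the members, 5 did not overlap at 1 µg/kg, against 35.5% of genes. The same 3 members were called at 3 µg/kg, against 10.1% of all genes (5.17% higher, 4.89% lower), and 6 did not overlap, against 33.7%.

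At 10 µg/kg, 5 members were called (Ces1b and Ces2c higher, and Ces1d, Ces2a and Ces3a lower), against 22.5% of all genes (11.3% higher, 11.2% lower), and 8 did not overlap, against 43.9%. The median log2 fold change was -0.36 over the members and -0.03 over all genes at this dose. With RLE scaling 2019 of 3278 called genes were higher at 10 µg/kg, against 1713 of 3402 with TMM. Between 30 and 10 µg/kg the median was -0.61 over the members and 0.01 over all genes.

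The 10 and 0.3 µg/kg libraries carry the same set of index sequences, so that comparison is free of the change of indices. Ces1b rose (log2 1.11 ± 0.20, edgeR adjusted p = 0.000403), and Ces1d (-2.21), Ces2a (-1.63), Ces1e (-1.48), Ces1g (-0.89) and Ces3a (-2.74) fell on the log2 scale, 6 calls against 13.3% of all genes (6.96% higher, 6.37% lower). The groups did not overlap for 6 members, against 30.5% of genes. Without the shallow library 4 members were called, since Ces1g (edgeR adjusted p = 0.0804) and Ces3a (0.112) were lost. Ces3a sat at the threshold with all libraries (edgeR adjusted p = 0.0498) and was lost without any 1 of the 6.

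Along the rank of the dose, from vehicle to the highest, 7 members had a slope that was called: Ces1b and Ces2c upward and Ces1d, Ces1e, Ces1g, Ces2a and Ces3a downward, where 46.6% of all genes were called, 23.3% in each direction. With RLE scaling 4241 of 6886 called slopes were upward, against 3521 of 7039 with TMM. The slope per dose step was -0.46 ± 0.11 (log2) for Ces3a, -0.32 ± 0.05 for Ces1d and 0.20 ± 0.02 for Ces1b. The Ces1g slope (-0.09 ± 0.03, edgeR adjusted p = 0.0259) was lost without 10 µg/kg liver 3 (0.0505), without 30 µg/kg liver 1 (0.0964), 2 (0.0695) or 3 (0.0978), and under RLE (0.0504) and upper-quartile (0.0586) scaling.

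Levels of different genes were compared per kilobase of exon. In vehicle livers Ces1c had 1715 ± 235 CPM per kb, above all others, followed by Ces1d with 392 ± 82.5 and Ces3a with 302 ± 9.4, which overlapped each other. Ces1f (189 ± 14.4), Ces1g (172 ± 29.3) and Ces2a (132 ± 16.9) came next, and each overlapped its neighbour. Ces2e (79.4 ± 9.85), Ces1e (79.2 ± 15.2) and Ces1b (74.9 ± 8.71) overlapped too, and Ces2c was lowest with 3.36 ± 0.441 (SD, n = 3).

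At 30 µg/kg the order changed below Ces1c, which had 1270 ± 118 CPM per kb. Ces1b was next with 184 ± 12.8 and overlapped Ces1f with 167 ± 11.8. Below them, each gene from Ces2e (82.7 ± 13.5) through Ces1g (67.4 ± 12.1), Ces1d (50.2 ± 21.6), Ces2a (29.3 ± 14.7), Ces1e (21.3 ± 11.9) and Ces3a (9.71 ± 16) to Ces2c (6.04 ± 1.01) overlapped its neighbour (SD, n = 3). The summed level of the 10 members was 1858, 2115 and 1690 CPM per kb at 30 µg/kg, against 3160, 2754 and 3504 in vehicle livers, with no overlap. Ces1c made up 67.4% ± 1.41 of the sum at 30 µg/kg and 54.6% ± 1.91 in vehicle, Ces1b 9.77% ± 0.442 at 30 µg/kg and 2.4% ± 0.305 in vehicle, and Ces3a 0.462% ± 0.752 at 30 µg/kg and 9.73% ± 1.46 in vehicle.

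**Figure D5:**
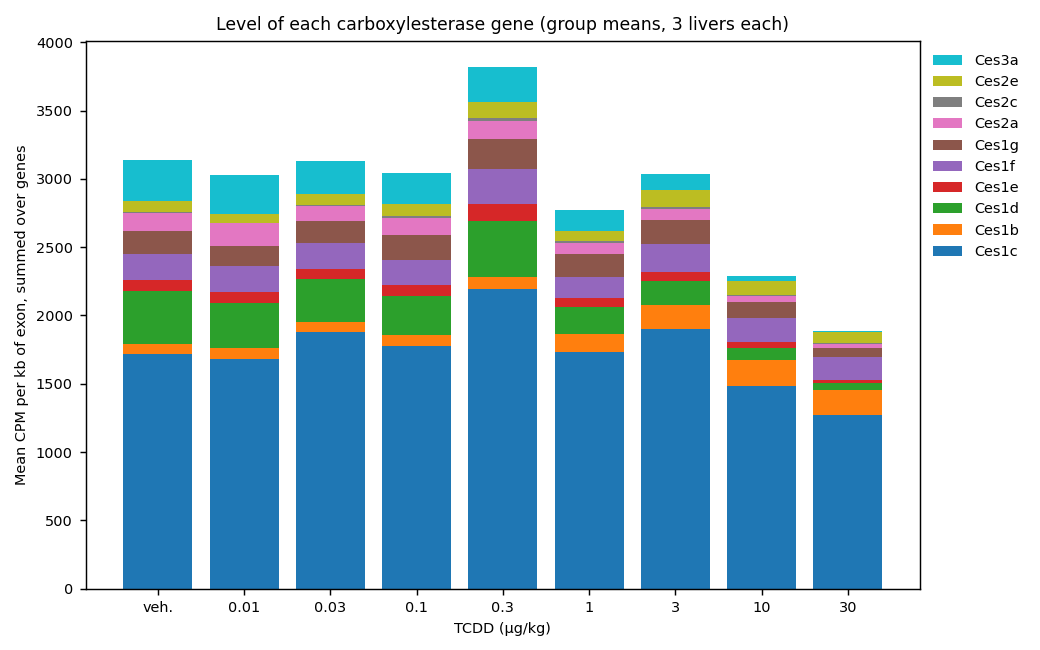
Mean level of each member in CPM per kb of exon, stacked, in each group (3 livers each) against TCDD dose (µg/kg), with vehicle at the left. Ces1c is the largest block throughout. The sum at 0.3 µg/kg, 3821 ± 1040 (SD, n = 3), includes the shallow library at 4815.

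Within some dosed groups most members were high or low in the same liver. At 1 µg/kg the first liver had the lowest level of 9 members, all but Ces3a, and the second liver the highest of the same 9. The markers of immune cells differed between these livers in the other order. The summed neutrophil markers were 1084, 5.14 and 183 CPM in the 3 livers at 1 µg/kg, against 2.76, 1.2 and 2.57 CPM in vehicle, and the summed Kupffer cell markers were 1397, 345 and 791 CPM at 1 µg/kg, against 334, 249 and 223 CPM in vehicle. The summed recruited macrophage markers were 458, 66 and 315 CPM at 1 µg/kg, against 93.5, 67.2 and 64.5 CPM in vehicle, and the summed hepatocyte markers were 94052, 139749 and 121512 CPM at 1 µg/kg, against 131477, 171757 and 247668 CPM in vehicle. At 1 µg/kg 7 of 7 neutrophil, 6 of 6 Kupffer cell and 5 of 7 recruited macrophage markers were called higher. Among the hepatocyte markers 3 of 9 were called lower. Among all genes 11.1% were called higher and 8.21% lower at this dose. The part of these cell types in the Ces calls at that dose was not tested. At 30 µg/kg the third liver had the lowest level of 8 members and the second the highest of 7. At both doses the same livers had the lowest and the highest summed hepatocyte markers. The share of all genes placed this way was not computed, so these counts are not read as particular to the members.

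Of the 10 other Ces genes of the annotation, 4 passed the low-count filter. Ces2g averaged 98.0 ± 5.35 CPM at 30 µg/kg and 61.5 ± 4.49 CPM in vehicle (SD, n = 3 each) and rose (log2 0.67 ± 0.16, edgeR adjusted p = 0.00131). Ces2h averaged 1.22 ± 0.371 CPM at 30 µg/kg and 0.316 ± 0.0526 CPM in vehicle (SD, n = 3 each) and rose too (log2 1.95 ± 0.43, edgeR adjusted p = 0.000891). It had only 7, 7 and 8 counts in the vehicle livers. Both were also called at 10 µg/kg, Ces2g at the threshold (log2 0.42 ± 0.15, edgeR adjusted p = 0.049) and Ces2h with log2 1.79 ± 0.43 (edgeR adjusted p = 0.00375). Ces3b fell, as described above. Ces4a averaged 0.166 ± 0.288 CPM at 30 µg/kg and 1.02 ± 0.329 CPM in vehicle (SD, n = 3 each) and fell (log2 -2.45 ± 0.96, edgeR adjusted p = 0.0484). That call rests on few reads, with 0, 13 and 0 counts in the 30 µg/kg livers and 19, 19 and 34 in the vehicle livers. The other 6 did not pass the filter.

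Ces1h, a Ces1 gene outside the members and chosen here after its values were seen, had 21, 5 and 38 counts at 30 µg/kg and 0 in the 3 vehicle libraries. It averaged 1.03 ± 0.923 CPM at 30 µg/kg (SD, n = 3), at least 7.95-fold higher than the limit of 3 counts per vehicle library. The third liver carried most of this: without it the bound is 4.14-fold, and the second liver alone is 1.48-fold above the limit. Without the low-count filter it was called (edgeR adjusted p = 1.29e-05), and 5.61% of its exonic bases overlap a gene of the other strand. Ces2b, below 1 CPM in every liver, was also called without the filter (edgeR adjusted p = 0.0221).

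Other enzymes of lipid and ester cleavage were read from lists at 30 µg/kg. Of all genes tested, 37.4% were called at this dose, 18.0% higher and 19.4% lower. Of 17 neutral lipid hydrolases and cofactors tested, 4 rose and 8 fell, with a median log2 fold change of -0.54, against -0.01 over all genes. Pnpla3, a lipid droplet hydrolase, fell 13.7-fold (edgeR adjusted p = 0.0017) and Aadac, an acyl-ester hydrolase of the endoplasmic reticulum, 4.30-fold (edgeR adjusted p = 1.57e-08), while Lpl, lipoprotein lipase, rose 7.5-fold (edgeR adjusted p = 4.67e-05). Mgll (log2 0.54) and G0s2 (log2 -1.23) were not called. Of 15 other ester and epoxide hydrolases, 4 rose and 5 fell. Afmid, a formamidase, fell 15.5-fold and Cmbl, a hydrolase of ester prodrugs, 3.00-fold, and Ache, acetylcholinesterase, rose 2.59-fold, while Lypla1 (log2 -0.35) and Esd (log2 0.40) were not called.

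Of 15 tested genes of triglyceride assembly and lipid droplets, 1 rose and 8 fell, where 18.0% of all genes rose and 19.4% fell. Plin4, a droplet coat protein, fell 8.26-fold, Tm6sf2, which aids lipoprotein lipidation, 5.90-fold, and Fitm1, a droplet protein, 4.21-fold, while Apob (log2 -0.53) and P4hb (log2 0.23) were not called. Of 17 liver transcription factors and receptors, 2 rose and 8 fell. Onecut1 fell 7.32-fold, and Nfe2l2, the regulator of the antioxidant response, rose 3.95-fold (edgeR adjusted p = 7.31e-10) and Cebpb 2.99-fold (edgeR adjusted p = 0.0423, lost without any 1 vehicle liver or the first 30 µg/kg liver). Hnf4a (log2 -0.20) and Rxra (log2 -0.03) were not called. The 6 AhR targets all rose at 30 µg/kg, Cyp1b1 by 2557-fold and Ahrr by 484-fold.

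Markers of other cell types changed at 30 µg/kg as well as at 1 µg/kg. Among all genes at 30 µg/kg, 18.0% were called higher and 19.4% lower. Of 9 hepatocyte markers tested, 8 fell and 0 rose at 30 µg/kg (Apoa1 7.34-fold lower, Cps1 3.3-fold lower), and their summed level was 63513 to 102338 CPM, against 131477 to 247668 CPM in vehicle livers. The second 30 µg/kg liver, the high one for Ces3a, had the highest sum, with 83481 CPM of Alb against 53290 and 50715 in the others. Neutrophil markers rose in 7 of 7 tested (51.6 to 120 CPM summed at 30 µg/kg, 1.2 to 2.76 CPM in vehicle, with Ly6g at 0 in vehicle). Bile duct markers rose in 5 of 7 (130 to 353 CPM, against 58 to 85 in vehicle), recruited macrophage markers in 5 of 7 (178 to 473, against 64.5 to 93.5), stellate markers in 3 of 7 (505 to 894, against 266 to 353) and B and T cell markers in 4 of 6 (11.8 to 17.9, against 3.77 to 6.3). Of 6 Kupffer cell markers, all called higher at 1 µg/kg, 1 fell at 30 µg/kg (Clec4f, not called under RLE scaling, 173 to 307 CPM, against 223 to 334), of 6 endothelial markers 1 fell (Lyve1, not called by DESeq2, 149 to 249, against 178 to 230), and the 1 adipocyte marker tested rose (2.38 to 3.86 CPM summed, against 0.783 to 1.36, with Lep at 0 in both groups). Their part in the changes of the members was not tested.

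For each member, the genes outside the family whose log2 CPM profile lay closest over the 26 deeper libraries were named by the smallest root mean square difference. They were Eml1 (0.22) and Timp3 (0.24) for Ces1b, Cryz (0.14) and Trmt2b (0.15) for Ces1c, Serpinf1 (0.35) and Khk (0.40) for Ces1d, and Shmt1 and Bco2 (both 0.23) for Ces1e. For Ces1f they were Uqcc1 (0.11) and Rab43 (0.12), for Ces1g Timd2 and Slc2a9 (both 0.20), and for Ces2a Serpinf1 (0.29) and Sema4g (0.32). For Ces2c they were Map2k6 (0.52) and Mup-ps16 (0.53), for Ces2e Thnsl2 (0.22), and for Ces3a Car3 (0.84) and Cyp2c69 (0.92). The profiles share libraries and dose, and a difference is read against the member's own SD, which was 0.20 for Ces1f, 0.26 for Ces1c, 0.35 for Ces2e, 0.49 for Ces1g, 0.59 for Ces1b, 0.74 for Ces1e, 0.87 for Ces2a, 0.93 for Ces2c, 1.04 for Ces1d and 2.33 for Ces3a. The differences for Ces1f, Ces1c, Ces2e and Ces2c are large beside those SDs. Car3 had 61.5 ± 65 CPM at 30 µg/kg and 2357 ± 709 CPM in vehicle livers (SD, n = 3 each).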

How the data were processed

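The deposited values are raw read counts per Ensembl gene for 27 liver libraries. Per the submitters' processing notes, the authors used FastQC 0.11.2, cutadapt 1.4.1, TopHat 1.4.1, SAMtools 0.1.19, HTSeq 0.6.1 and DESeq with GRCm38. Not given in the sources used here are the annotation release, strand setting and read length. Reads on no gene (5.62% to 11.9%) and on more than 1 gene (1.79% to 3.49%) and the other summary lines stayed out of library sizes. Symbols matched 40254 of 41388 identifiers in GENCODE for GRCm38.

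The counts were fitted with edgeR 4.0.16 in R 4.3.3 (filterByExpr with a minimum of 10 counts, TMM, robust quasi-likelihood F tests in a one-way fit of all 27 libraries, Benjamini-Hochberg over 15121 genes, called below 0.05). The SE of a log2 fold change is its size over the square root of F. The fit was tested on simulated data. Replicates differed by more than sampling noise, with a lowest chi-square per degree of freedom of 5.62. Depth limits the second 0.3 µg/kg library most. Genes with few counts, such as Ces4a, Ces2h and Ces1h, are limited in the other libraries as well. Alternatives included DESeq2 1.42.0, other scaling, no filter, the 6 libraries alone, a replicate block, an adjusted p below 0.01, other dose scales, subsets of groups and leaving out each library. Named were all members, the other Ces genes passing the filter, Cyp1a1, up to 3 called genes per list (by size at 30 µg/kg, mean of at least 1 CPM) with up to 2 uncalled ones, and the 2 closest profiles per member among genes outside the family, where predicted gene models were left out as a later addition to the rule. A gene that the rule names is not reported here. The closest profiles used log2(CPM + 0.5). The members and lists were chosen with earlier results of these data known. Coding identities and shared 50-base stretches come from GENCODE transcripts, promoters from RefSeq.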

Additional observations from a re-analysis of the deposited data

How the results depend on the processing

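Over 602 alternatives to 32 calls of members, 551 kept direction and side of the threshold, 49 lost the call and 2 turned: the dose slope of Ces1g was 0.04 from vehicle to 0.1 µg/kg only, and that of Ces2c -0.17 from 0.3 to 10 µg/kg only, neither called. Uncalled results became called in 23. Leaving out 1 library each gave 6 calls throughout at 30 µg/kg, 4 to 5 at 10, 2 to 3 at 3 and 1, 0 to 1 at 0.3 (0 without the third dosed liver), 4 to 7 for 10 against 0.3, 6 to 7 for the slope and 0 to 5 for 30 against 10 µg/kg, with 5 without the second 30 µg/kg liver. Without that liver 1741 of 15478 genes were called for 30 against 10 µg/kg, and with it 484 of 15121. The 1 call for 30 against 10 became 0 with upper-quartile scaling, with the 6 libraries alone and at an adjusted p below 0.01, and 2 with DESeq2. At 0.1 µg/kg, 0 calls became 1 with the 6 libraries alone and with DESeq2, at 3 µg/kg 3 became 6 with the 6 libraries alone, and the slope had 1 call in vehicle to 0.1 µg/kg. Over all genes, 1996 of 14007 were called at 3 µg/kg with the 6 libraries alone, against 1520 of 15121 in the main fit. The slope from vehicle to 0.1 µg/kg was called for 51 of 14321 genes. The causes were not tested.

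No pairing by replicate number was seen over all genes: deviations of same-numbered livers had a median correlation of 0.018 (-0.335 to 0.337, 108 pairs) and of others -0.00487. A median over all genes cannot exclude a pairing that acts on fewer genes. With the replicate block, 30 against 10 µg/kg gave 2 calls against 1, 10 µg/kg against vehicle 6 against 5, and 10 against 0.3 µg/kg 5 against 6.

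Over all genes, the 6 libraries alone gave 2 calls for 30 against 10 µg/kg in place of 484, 1591 at 1 µg/kg in place of 2927 and 77 at 0.1 µg/kg in place of 29. At 0.01 µg/kg DESeq2 gave 16 and edgeR 0.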

Other observations

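The second 30 µg/kg liver stood at least 10-fold above both other livers of its group in 4 of 15117 genes of this comparison, counting levels of at least 1 CPM: Ces3a, Ces3b, Clec2h and Cyp2c54. The last pair was chosen after these values were seen. Cyp2c54, a cytochrome P450 of the liver, had 5.33, 149 and 11.6 CPM at 30 µg/kg, against 239, 338 and 313 CPM in vehicle livers, and the 10 µg/kg livers had 182, 142 and 161 CPM. Clec2h had 0.588, 10.5 and 0.532 CPM at 30 µg/kg, against 1.34, 1.93 and 0.963 CPM in vehicle livers, and the 10 µg/kg livers had 10.8, 8.39 and 7 CPM. The same liver stood at least 10-fold below both others in Cldn4, Ereg, Gabrp and Slc7a11. Cyp1a1 was 7943 CPM in that liver, against 6938 and 6721 CPM in the others.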
